A study of Mus musculus with 7 samples.

Results

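The genes described here are 10 members of the Notch signalling pathway: the ligands Dll1, Dll3, Jag1 and Jag2, the receptors Notch1, Notch2 and Notch3, the receptor-modifying enzyme Lfng, and the target genes Hes1 and Hes5. They were taken by symbol from a table of 23282 entries, and all 10 were found in it. Their RNA was measured with QuantSeq, a method that reads 1 tag near the 3' end of each polyadenylated transcript. The cells were tumour cells positive for the red fluorescent protein tdTomato, sorted from adult C57BL/6 mice with glioblastoma, a malignant brain tumour. There were 3 libraries labelled WT and 4 labelled FYN-KO (Fyn-KO below), each from cells sorted on their own. Fyn is a tyrosine kinase of the Src family. How the tumours were made, which cells carried the knockout and which bases of Fyn were altered were points not given in the sources used here, so a 3' tag of Fyn need not report on the knockout.

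Notch receptors are switched on by Delta and Jagged ligands on a neighbouring cell. The bound receptor is cut by ADAM proteases and then by gamma-secretase, and its freed intracellular part enters the nucleus, where it joins the DNA-binding protein Rbpj and a Mastermind coactivator to switch on genes such as Hes1 and Hes5. Hes proteins repress proneural factors, and in the developing brain this keeps neural and glial progenitors from differentiating.

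Several facts of the libraries touch every value below. Depth was 11911864 to 16371244 counts in WT and 8976745 to 10396507 in Fyn-KO. Although deeper, the WT libraries had counts for fewer genes, 7723 to 9924, against 13535 to 14548 in Fyn-KO. Fyn stood at 719.9 to 1604 counts per 1000000 (CPM) in WT and 74.5 to 190 CPM in Fyn-KO. The 10 markers of the oligodendrocyte lineage, a glial lineage, summed to 12960 to 27550 CPM in WT. In the libraries labelled Fyn-KO they summed to 197 to 1223 CPM, with none of the 10 at 0 in every library. There, 10 markers of ovarian granulosa and luteal cells summed to 23550 to 27120 CPM, against 4.54 to 285 CPM in WT. Cyp11a1, Hsd3b1 and Star held most of that sum (Fyn-KO means 11980, 6506 and 4601 CPM), while Fshr and Amh stood at 4.41 and 0.266 CPM. A list of 6 adrenal cortex markers summed to 873 to 1029 CPM in Fyn-KO and 0 in WT, although 2 of the 6 had no count in Fyn-KO. These markers go against the labelled cell type in Fyn-KO. The WT libraries held transcripts of other tissues too, with 5 lung epithelium markers at 118 to 789 CPM and 6 liver markers at 269 to 423.5 CPM, against 0.107 to 7.98 and 4.23 to 8.18 CPM in Fyn-KO. The part of these other transcripts in the results below was not tested, and fewer cells of a type cannot be told apart from less RNA per cell. Of 4822 genes that reached 100 CPM in a WT library, 2002 (41.5%) lay under 1 CPM in another WT library, against 1 of 2523 genes in Fyn-KO.

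Of the 10 genes, Dll3 and Notch1 were lower in Fyn-KO, Notch2 and Lfng were higher, and Hes1, Hes5, Jag1 and Notch3 did not pass the test. Dll1 and Jag2 had too few counts to be tested. The 4 called genes are set against 22.5% of all 13122 genes tested, with 19.0% called higher and 3.51% called lower (edgeR quasi-likelihood test, Benjamini-Hochberg adjusted p under 0.05 over all genes tested). Notch2 and Lfng had under 10 counts in each WT library, so they entered the test through their Fyn-KO counts alone. WT and Fyn-KO did not overlap in CPM for 5 of the 8 tested members, namely Dll3, Notch1, Notch2, Notch3 and Lfng, where 37.4% of genes tested do not overlap (30.1% with Fyn-KO higher and 7.29% with WT higher). DESeq2 made the same 4 calls, against 34.2% of all genes (27.2% higher, the rest lower). Dll3 alone was called among genes detected in both groups (3 members tested, 3.07% of such genes called, 0.807% higher and 2.26% lower) and by limma-voom with quality weights (2.62%, 0.183% higher and 2.44% lower). The median log2 fold change, Fyn-KO minus WT, was -0.47 over the 8 tested members and 0.45 over all genes tested.

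**Figure D1:**
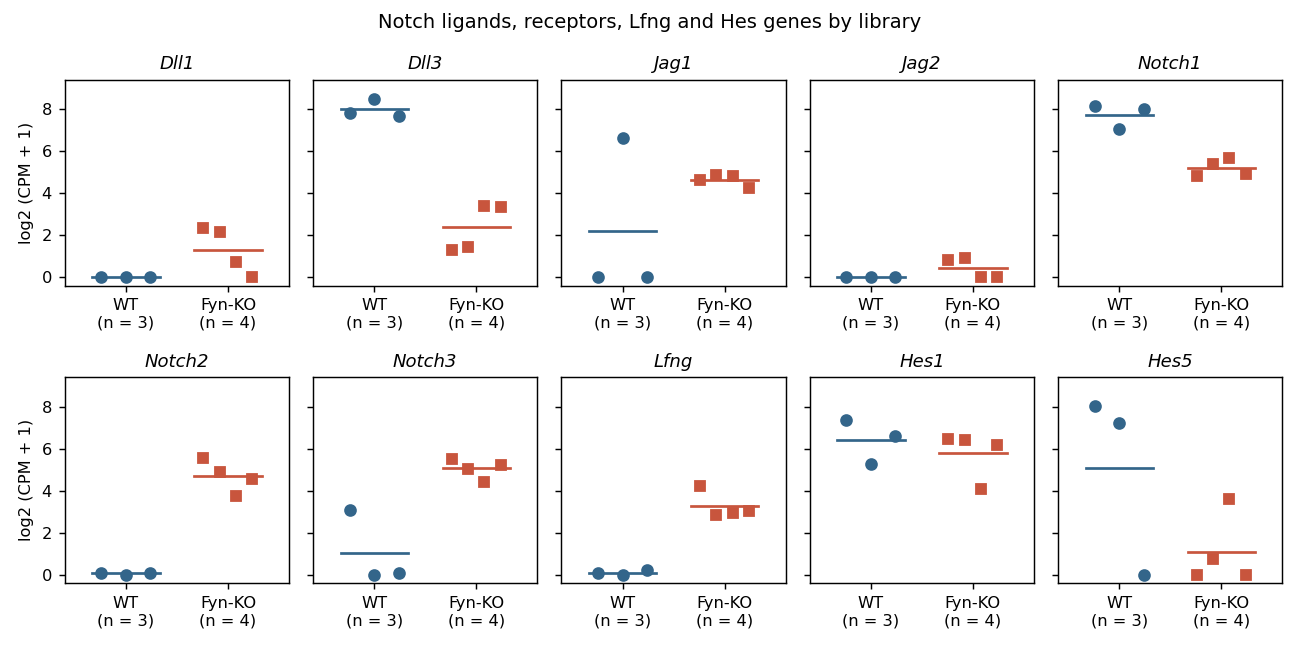
Level of each member in each library, as log2 of CPM plus 1, for 3 WT libraries (circles) and 4 Fyn-KO libraries (squares), with the group mean as a bar. Dll3 and Notch1 lie higher in every WT library, and Notch2, Notch3 and Lfng lie higher in every Fyn-KO library. Jag1 is split between the WT libraries, and Hes5 is split within both groups.

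Dll3 held most of the Delta and Jagged ligand counts of each WT library. Its product stays mostly inside the cell and is known to dampen Notch signalling rather than to activate receptors on neighbours. Dll3 (ENSMUSG00000003436.11, GRCm38 chromosome 7, 28293553 to 28302238, minus strand) had 225, 358 and 200.2 CPM in the WT libraries (261 ± 84.8, mean ± SD, n = 3). The Fyn-KO libraries had 1.49, 1.73, 9.63 and 9.13 CPM (5.50 ± 4.49, n = 4). All WT libraries lay far above all Fyn-KO libraries, and among the latter replicates 3 and 4 lay above replicates 1 and 2. Dll3 was called lower, with means 47.5 times apart (log2 fold change -5.56 ± 0.94, approximate SE, edgeR adjusted p = 0.0121). The call held when any 1 of the 7 libraries was left out (edgeR adjusted p 0.00693 to 0.0238).

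The letters CAGCTG, a form of the E-box that proneural factors bind and the same on both strands, were searched in RefSeq windows around gene starts. They were found in 16.3% of 32851 windows of 300 bases (250 before to 50 after a start), and in 4 of 10 windows of 9 members, those of Jag1, Lfng, Dll3 and Dll1. In Dll3 the match lay 7 bases before the RefSeq start, 28301785. GENCODE places the start 453 bases further upstream, at 28302238, so the match lies within the first exon of that model. A match of letters is not evidence of binding.

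Jag1, a Jagged ligand of blood vessels and many epithelia, was steady in Fyn-KO and all or none in WT. Jag1 (ENSMUSG00000027276.7, chromosome 2, 137081456 to 137116644, minus strand) had 23.6, 28.3, 27.7 and 18.3 CPM in the Fyn-KO libraries (24.5 ± 4.62, n = 4). In WT it had no count in replicates 1 and 3 and stood at 97.8 CPM in replicate 2. The groups overlapped, and the test did not pass (log2 fold change -0.14 ± 2.25, edgeR adjusted p = 0.980). Without WT replicate 2, no WT count of Jag1 remained, so Jag1 entered that fit through its Fyn-KO counts alone. It was called higher there (edgeR adjusted p = 0.00455), where 4585 of 13991 genes tested were called higher and 839 lower. The direction for Jag1 thus rests on WT replicate 2.

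Dll1 and Jag2, ligands that activate receptors on neighbouring cells, were barely counted. Dll1 had no count in WT and 39, 36, 6 and 0 counts in Fyn-KO. Its Fyn-KO mean of 2.07 ± 2.05 CPM was 9.26 times a floor of 3 counts per WT library. That floor covers counting error only, and the groups overlapped, with Fyn-KO replicate 4 at 0 like WT. Jag2 had no count in WT and 7, 9, 0 and 0 counts in Fyn-KO, so both genes were counted most in Fyn-KO replicates 1 and 2, and neither was counted in replicate 4.

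Among the counts of Dll1, Dll3, Dll4, Jag1 and Jag2 together, Dll3 took 100%, 78.5% and 99.9% in the WT libraries. Its share was 4.00%, 3.82%, 21.8% and 27.2% in the Fyn-KO libraries. The 95% Wilson intervals were widest in Fyn-KO replicate 4, at 22.5% to 32.5%, and like all intervals here cover counting error only. Jag1 took 54.5% to 63.4% in Fyn-KO. These shares do not depend on how libraries are scaled. They are shares of counts, and between genes they need not match shares of RNA in the cells. This holds above all in WT, where many genes were all or none.

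Notch1, a receptor of neural and glial progenitors among other cells, was lower in Fyn-KO but was counted in every library. Notch1 (ENSMUSG00000026923.15, chromosome 2, 26457903 to 26516663, minus strand) had 279, 133.0 and 257 CPM in the WT libraries (223 ± 78.7, n = 3). The Fyn-KO libraries had 27.5, 41.6, 50.2 and 29.2 CPM (37.1 ± 10.8, n = 4). The lowest WT library lay well above the highest Fyn-KO library, with means 6.00 times apart (log2 fold change -2.71 ± 0.62, edgeR adjusted p = 0.0152). Leaving out any 1 library kept the call (edgeR adjusted p 0.00520 to 0.0494). It did not pass among genes counted in both groups (log2 fold change -2.31, edgeR adjusted p = 0.0640). Exons of 2 annotated genes on the opposite strand, 0610009E02Rik and Gm13568, overlap the last 1000 bases of Notch1, and tags from either strand cannot be told apart, with strandedness of the counting not given in the sources used here.

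Notch2, a receptor found in many tissues including ovarian granulosa cells, had 2 counts in the WT libraries together. Notch2 (ENSMUSG00000027878.11, chromosome 3, 98013527 to 98150361, plus strand) had 47.0, 29.1, 12.6 and 22.7 CPM in the Fyn-KO libraries (27.8 ± 14.5, n = 4). The ratio of pooled counts was 575, with a 95% exact counting interval of 159 to 4757 (edgeR adjusted p = 0.0123, fitted log2 fold change 8.61 ± 1.78). Each Fyn-KO library lay above each WT library, and replicate 1 was the highest.

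Notch3, a receptor of vascular smooth muscle and pericytes among other cells, lay higher in all Fyn-KO libraries but did not pass. Notch3 (ENSMUSG00000038146.8, chromosome 17, 32120820 to 32166852, minus strand) had 7.51, 0 and 0.0840 CPM in the WT libraries and 45.6, 32.4, 20.6 and 37.1 CPM in those of Fyn-KO. WT replicate 1 held nearly all of the WT counts, 96 of 97. With all libraries the log2 fold change was 3.70 ± 2.08 (edgeR adjusted p = 0.284). Without WT replicate 1, only 1 WT count remained, so Notch3 entered that fit through its Fyn-KO counts alone. It was called higher there (log2 fold change 9.21, edgeR adjusted p = 0.0152), where 2811 of 14091 genes tested were called higher and 729 lower.

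Notch1 took 97.3%, 100% and 99.9% of the counts of the 4 Notch receptors in the WT libraries. Its share was 21.5%, 38.7%, 56.0% and 26.1% in the Fyn-KO libraries. There Notch2 took 14.0% to 36.8% and Notch3 took 22.9% to 35.7%. The receptor counts of the WT libraries were thus almost only Notch1. Those of the Fyn-KO libraries were a mixture in which Notch1 had its largest share in replicate 3. Notch4, a receptor of endothelial cells, took the rest. The summed markers of mural cells, the cells around small vessels, were 576, 1199 and 992 CPM in the WT libraries and 533 to 662 CPM in Fyn-KO. Cspg4 alone stood at 535.5, 1141 and 348 CPM in the WT libraries and at 22.4 to 89.5 CPM in Fyn-KO. It thus made up most of the sum in WT replicates 1 and 2, and these sums do not compare mural cells between the groups. In that list of 8 genes, 3 were called higher (Acta2, Myh11 and Kcnj8) and 1 lower (Cspg4, which glial progenitors share), and 1 had no count in WT.

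**Figure D2:**
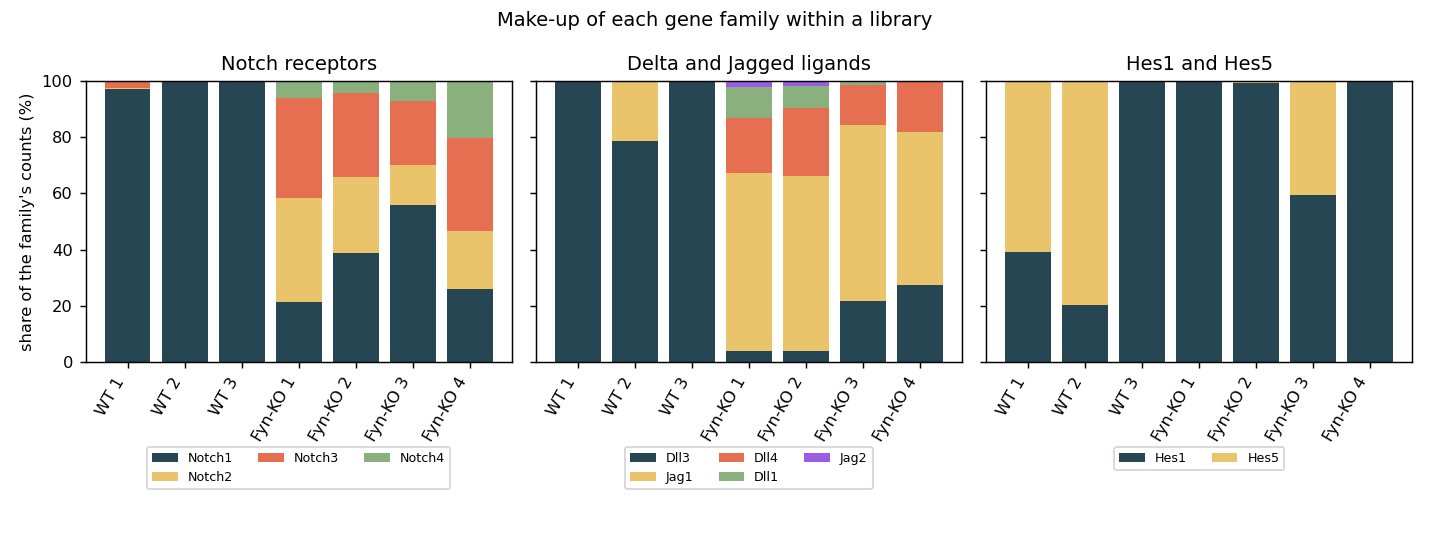
Share of counts, in percent, of each gene among the Notch receptors, the Delta and Jagged ligands, and the pair Hes1 and Hes5, in each of 3 WT and 4 Fyn-KO libraries. Notch1 and Dll3 fill most of the WT bars (at least 97.3% and 78.5%), while Fyn-KO bars are mixed.

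Lfng codes for lunatic fringe, an enzyme that lengthens sugars on Notch receptors and so changes which ligands activate them. Lfng (ENSMUSG00000029570.5, chromosome 5, 140607320 to 140615545, plus strand) had 1, 0 and 2 counts in WT. The Fyn-KO libraries had 17.6, 6.25, 6.79 and 7.35 CPM of it (9.49 ± 5.41, n = 4). Replicate 1 lay apart from the other Fyn-KO libraries, and all 4 lay above WT. Lfng was called higher (edgeR adjusted p = 0.0200, 0.00624 to 0.0448 when 1 library was left out).

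Hes1 and Hes5 are repressors switched on by Notch, and neither passed the test. Hes1 (ENSMUSG00000022528.8, chromosome 16, 30064384 to 30067796, plus strand) had 167.0, 37.3 and 97.97 CPM in the WT libraries (101 ± 64.9, n = 3). The Fyn-KO libraries had 86.5, 84.7, 16.3 and 71.3 CPM (64.7 ± 32.98, n = 4). The groups overlapped widely, with the lowest value in Fyn-KO replicate 3 and the highest in WT replicate 1 (log2 fold change -0.80 ± 0.86, edgeR adjusted p = 0.623).

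Hes5, the more neural of the pair, was split within both groups. Hes5 (ENSMUSG00000048001.7, chromosome 4, 154960923 to 154962371, plus strand) had 261, 148 and 0 CPM in the WT libraries, whereas the Fyn-KO libraries had 0, 0.673, 11.2 and 0 CPM. Its WT mean was 136 ± 131 CPM and its Fyn-KO mean 2.96 ± 5.48 CPM. WT replicate 3 had no Hes5 count among 1167 counts of Hes1 and Hes5, which allows a share of up to 0.328% (Wilson), while Hes5 took 61.0% and 79.8% in the other WT libraries. The difference did not pass (log2 fold change -5.34 ± 2.77, edgeR adjusted p = 0.239), and it did not pass in any fit with 1 library left out that could test it. In Fyn-KO replicate 3, where Hes1 was lowest, Hes5 took 40.6% of the pair, and that library also held the highest oligodendrocyte lineage sum of its group, 1223 CPM. Exons of Gm20421, annotated on the opposite strand, overlap the last 1000 bases of Hes5.

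The motif GTGGGAA of Rbpj, searched on both strands, was found in 6.38% of the 32851 RefSeq windows and in 2 of the 10 windows of members, those of Hes5 and Lfng. Their levels did not follow each other, with Lfng called higher in Fyn-KO and Hes5 counted mainly in WT, without a call. Hes5 is shown from 250 to 1 bases before its start (RefSeq, GRCm38.p6, chr4:154960673-154960922, plus strand) and Lfng from 250 to 22 bases before its RefSeq start, which lies 21 bases downstream of the GENCODE start (chr5:140607091-140607319, plus strand). Capitals mark the Rbpj motif on either strand and, in Lfng, also the E-box. The motifs do not overlap each other.
Hes5: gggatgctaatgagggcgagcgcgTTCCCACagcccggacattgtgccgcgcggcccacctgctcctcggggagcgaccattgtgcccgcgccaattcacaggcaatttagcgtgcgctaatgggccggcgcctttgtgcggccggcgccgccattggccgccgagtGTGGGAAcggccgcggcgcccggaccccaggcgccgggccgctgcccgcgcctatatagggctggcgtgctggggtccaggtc
Lfng: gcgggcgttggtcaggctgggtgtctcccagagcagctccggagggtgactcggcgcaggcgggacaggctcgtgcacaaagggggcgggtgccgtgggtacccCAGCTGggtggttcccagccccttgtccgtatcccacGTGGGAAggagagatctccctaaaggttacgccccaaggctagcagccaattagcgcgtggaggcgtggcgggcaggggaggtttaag
Hes5 holds the motif at 83 bases before its start on the plus strand and at 226 bases on the minus strand, and Lfng at 109 bases on the plus strand. Hes1 has no entry in the table of windows.

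Of 65 other genes of the pathway in the table, 55 were tested. Of these, 6 were higher in Fyn-KO, 1 was lower and 48 did not pass, where 19.0% of all genes tested were higher and 3.51% lower. Their median log2 fold change was 0.32, against 0.45 over all genes tested. Among the 55, 25 had no count in at least 1 WT library and 3 in at least 1 Fyn-KO library, where the shares over all genes tested were 58.3% and 10.2%. The 6 higher genes each had under 10 counts in every WT library.

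Dll4 and Notch4, a ligand and a receptor of endothelial cells, were among the higher genes. Dll4 had 2 counts, both in WT replicate 3, against 7.25, 10.97, 6.24 and 6.13 CPM in the Fyn-KO libraries (pooled ratio 159, 95% exact counting interval 43.7 to 1321, edgeR adjusted p = 0.0263). Notch4 had 2 WT counts, against 7.78, 4.42, 6.35 and 22.7 CPM in the Fyn-KO libraries (pooled ratio 206, interval 56.8 to 1711, edgeR adjusted p = 0.0147). Hey2, a Notch target of heart and arteries, had no WT count, against 1.49, 6.35, 1.53 and 2.005 CPM in the Fyn-KO libraries (edgeR adjusted p = 0.0129). The Fyn-KO mean of Hey2 was 12.7 times the floor of 3 counts per WT library, which covers counting error only. The 8 endothelial markers summed to 1.17, 20.1 and 1052 CPM in WT and to 495 to 547 CPM in Fyn-KO. Of these 8, 1 was called higher (Emcn), and it was the marker with no count in WT. Their part in the rise of Dll4, Notch4 and Hey2 was not tested.

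The other higher genes belong to steps inside the cell. Maml1, a Mastermind coactivator, had 1 WT count, against 6.71, 13.5, 6.46 and 13.4 CPM in the Fyn-KO libraries (edgeR adjusted p = 0.0129). Aph1c, a subunit of gamma-secretase, had 2 WT counts, against a mean of 17.6 ± 4.30 CPM over the Fyn-KO libraries (edgeR adjusted p = 0.0122), and its tags may be split with those of its close copy Aph1b. Dtx2, a Deltex ubiquitin ligase, had 9 WT counts, all in replicate 2, against a mean of 23.4 ± 10.3 CPM over the Fyn-KO libraries (edgeR adjusted p = 0.0382). The Dtx2 call was lost when any 1 Fyn-KO library was left out (edgeR adjusted p 0.0810 to 0.0932, log2 fold change 6.75 to 7.34).

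Calls in the general machinery were 1 each among 10 receptor cleavage genes, 12 nuclear complex genes and 13 genes of ubiquitin ligases and endocytosis. Over all genes tested, 22.5% were called. A gene that did not pass is not shown to be equal between the groups. Of 10 genes of receptor cleavage, 9 did not pass, and they included Adam17 (90.3 ± 46.5 CPM in WT, 147 ± 26.4 CPM in Fyn-KO), a protease that cuts the receptor outside the cell, and Aph1a (189 ± 96.1 and 100.5 ± 14.5 CPM), a gamma-secretase subunit. Of 12 tested genes of the nuclear complex, 11 did not pass. Among those, the corepressor Ncor1 stood at 421 ± 220 and 429 ± 30.1 CPM. None of 4 glycosylation genes besides Lfng and none of 6 Groucho corepressors passed in either direction, and the Groucho family member Aes stood at 584 ± 213 and 953 ± 66.1 CPM. Nrarp, a feedback inhibitor switched on by Notch, had 45.5, 168.5 and 0 CPM in the WT libraries and 5.36 to 11.4 CPM in those of Fyn-KO, and did not pass. In WT, Nrarp was absent from the library that also lacked Hes5, replicate 3. Heyl, listed among the same targets, went the other way, with 14.4 CPM in replicate 3 and no count in replicates 1 and 2. Hes6 also had its highest WT value in replicate 3, at 75.5 CPM.

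**Figure D3:**
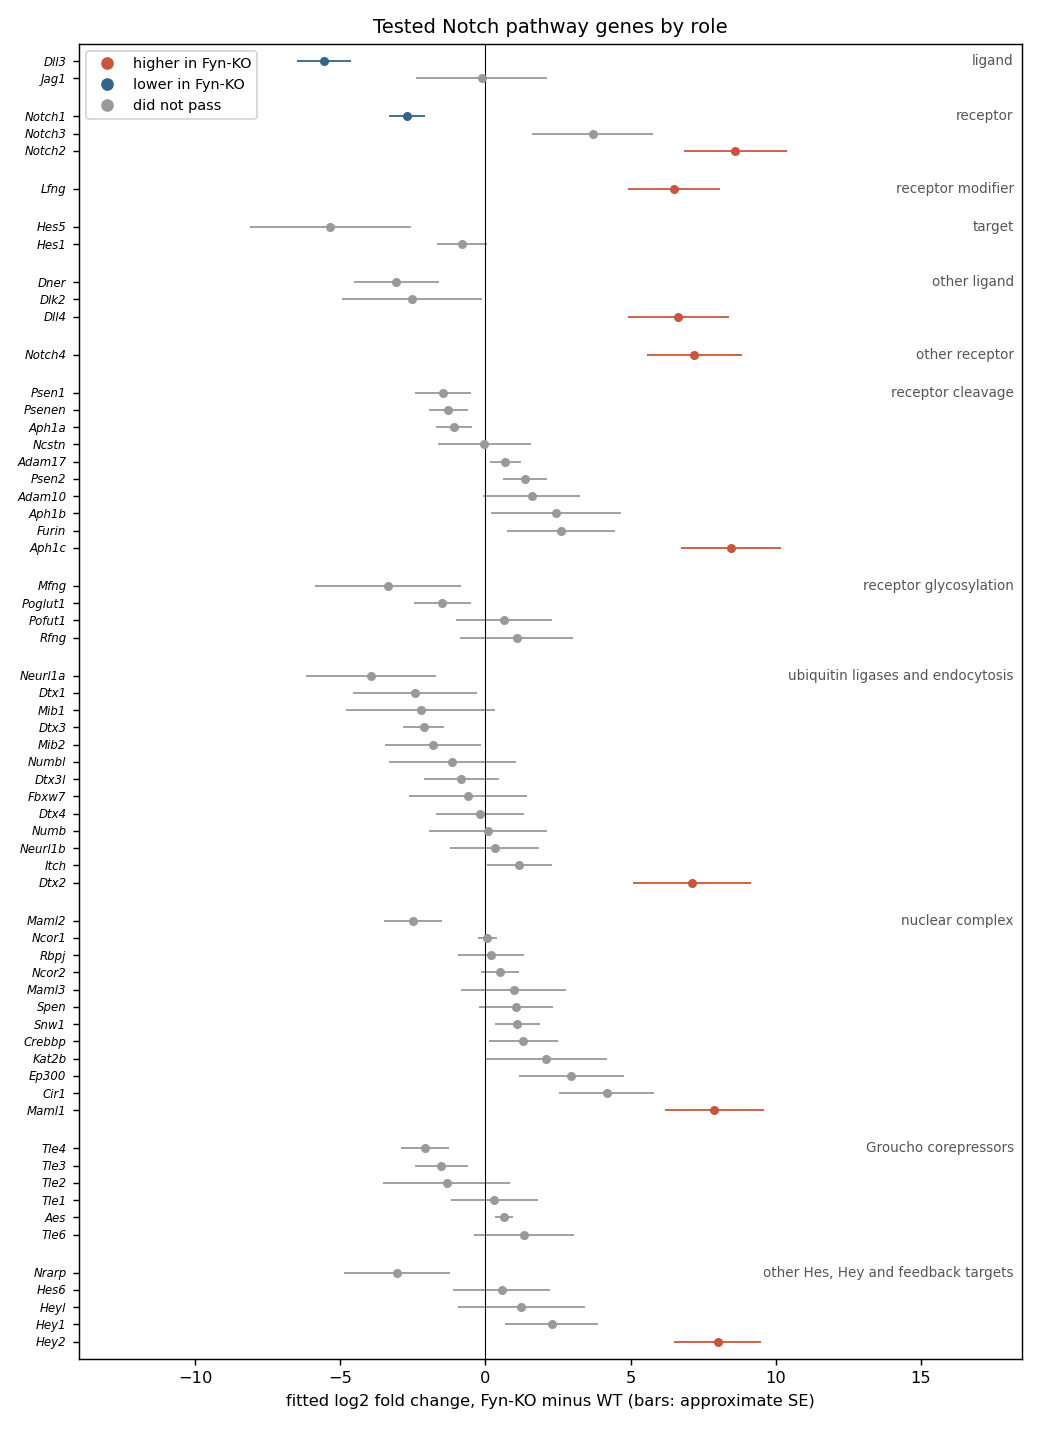
Fitted log2 fold change, Fyn-KO minus WT, with approximate SE, of the 8 tested members and the other tested pathway genes in the roles shown, coloured by the call. The coloured points are 8 higher and 2 lower genes, and the fitted sizes of higher genes with few or no WT counts are not measured sizes.

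The oligodendrocyte lineage markers and Dll3 were both lower in Fyn-KO, and within Fyn-KO both were higher in replicates 3 and 4. Within WT they did not run together: replicate 2 had the lowest marker sum, 12960 CPM, and the highest Dll3 level, 358 CPM. Per 1000 counts of the 10 lineage markers, a scaling chosen after the levels were seen, Dll3 had 8.18, 27.6 and 7.98 counts in the WT libraries, and 7.57, 6.13, 7.87 and 13.4 in the Fyn-KO libraries. On this scale the groups overlapped, with only WT replicate 2 apart from the rest. Notch1 had 10.1, 10.3 and 10.2 counts per 1000 in the WT libraries, and 139.5, 147, 41.1 and 42.8 in Fyn-KO. Here all Fyn-KO libraries lay above WT, the reverse of the order by library total. Hes1 had 6.06, 2.88 and 3.91 in the WT libraries, and 439, 300.0, 13.3 and 105 in those of Fyn-KO, so it too did not overlap. On this scale all Fyn-KO values of Jag1, Notch1, Notch2, Notch3, Lfng and Hes1 lay above WT. No member had all WT values above Fyn-KO. The marker counts used as the divisor were 212106 to 351938 in WT and 1850 to 11177 in Fyn-KO. They were lowest in Fyn-KO replicates 1 and 2, at 1850 and 2937. Any gene that falls less than the markers therefore rises on this scale. The share of all genes that do so was not computed, so this order says little about the members themselves.

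**Figure D4:**
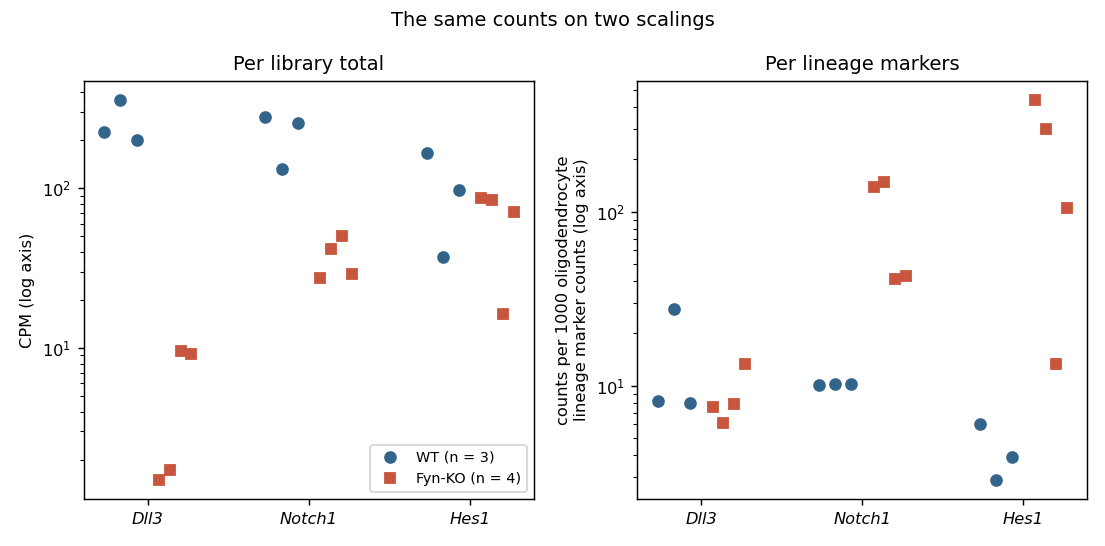
Dll3, Notch1 and Hes1 in 3 WT libraries (circles) and 4 Fyn-KO libraries (squares), left as CPM and right as counts per 1000 oligodendrocyte lineage marker counts, both on log axes. Dll3 overlaps between the groups only on the right, and Notch1 changes order between the panels.

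**Figure D5:**
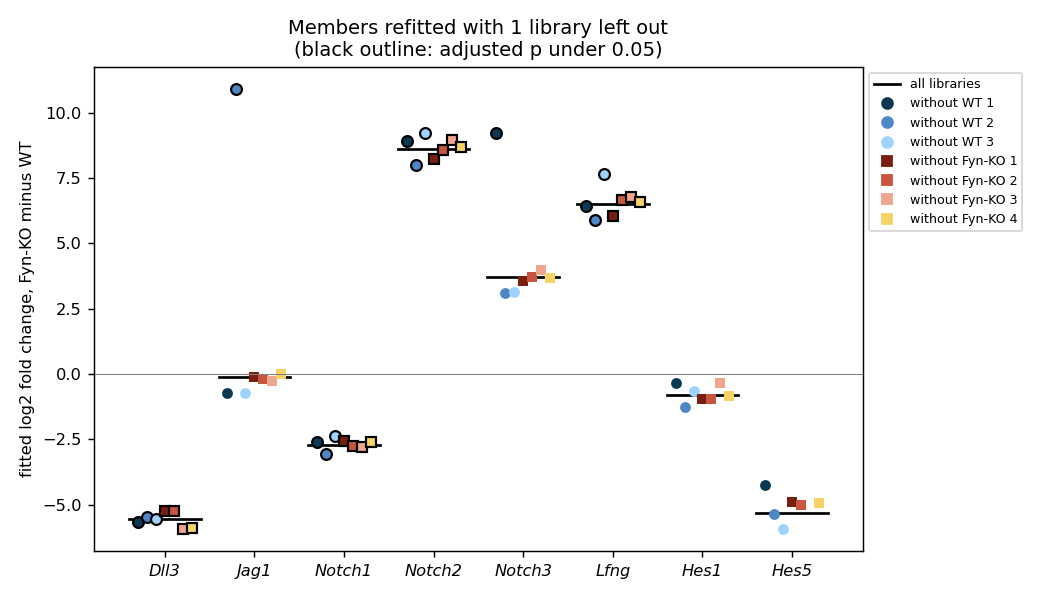
Fitted log2 fold change, Fyn-KO minus WT, of the 8 tested members with all libraries (bars) and with each library left out (points, with a black outline for adjusted p under 0.05). Jag1 moves to 10.93 without WT replicate 2 and Notch3 to 9.21 without WT replicate 1, while Dll3, Notch1, Notch2 and Lfng keep their side of 0 and their call in all 7 fits.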

How the data were processed

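Per the labels' protocols, RNA was column-purified from lysed sorted cells, and QuantSeq 3' libraries were prepared from it. Per the submitters' processing notes, Bowtie2, bedtools and DESeq2 1.32.0 were used with mm10 (GRCm38). The deposited table holds whole-number counts per gene, read here as raw counts without molecular identifiers, with a file name that calls them modified, by the authors in a way not given in the sources used here. Data of WT replicate 3 were joined to the WT group only, because a different WT sample carries that column's name as its title.

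Low genes were removed by filterByExpr (edgeR 4.0.16, R 4.3.3; 10 counts in enough libraries, 15 in all), and TMM set the scale. Fyn-KO and WT were compared by the two-sided quasi-likelihood test across 13122 genes with Benjamini-Hochberg adjustment. The approximate SE divides the size of the log2 fold change by the root of F. CPM use the library total. DESeq2 1.42.0 and limma 3.58.1 served as alternatives. Coordinates are from GENCODE M21, and windows before gene starts from RefSeq (GRCm38.p6). The members and lists were chosen with earlier results of these data known. Genes named are the 10 members, Fyn, pathway genes past the threshold and examples of the most abundant others in each role, but 1 pathway gene is not reported here. No p-value is adjusted over the members alone. The scaling to lineage markers was added after seeing the data.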

Additional observations from a re-analysis of the deposited data

Results flagged for a closer look

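In 6 of 58 sets of 4 Fyn-KO values, 1 library lay far from the others relative to the whole range (Dixon's test at the 95% level, which chance alone would flag in about 1 of 20 sets). The sets share counts and are not independent. For Lfng it was replicate 1, at 17.6 CPM. For Hes5 it was replicate 3, at 11.2 CPM, and the share of Hes5 among the counts of Hes1 and Hes5 was 40.6% in the same library, from the same counts. Replicate 2 stood apart for Hey2, at 6.35 CPM, and for the Notch ligand-like gene Dlk1, at 15.9 CPM, with no Dlk1 count in any other library of either group. Replicate 4 had the lowest share of Jag1 among the Delta and Jagged ligands, at 54.5%.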

How the results depend on the processing

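Dll3 kept its call and direction in all 15 alternative fits. The other member calls were also made with DESeq2, a minimum count of 50, no filter, RLE factors or unscaled library sizes. Notch1 did not pass among genes detected in both groups (log2 fold change -2.31), with limma-voom and quality weights (-2.26) or with a replicate block (-2.51). Notch2 did not pass with voom (8.77) or the block (8.85), nor did Lfng (7.02 and 7.05). Jag1 turned positive with voom (2.32) and the block (8.30), and Hes1 with voom (0.17), none of them past the threshold. The cause was not tested. Per 1000 lineage marker counts, the log2 ratio of group means turned from -2.59 to 3.18 for Notch1, from -0.64 to 5.64 for Hes1 and from -0.41 to 4.74 for Jag1. It moved from -5.57 to -0.74 for Dll3 and from -5.52 to -1.27 for Hes5. The marker counts used as the divisor were far lower in Fyn-KO, which raises the ratio of any gene on this scale.

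Over all genes, 52 were higher and 146 lower among genes detected in both groups, 24 higher with voom, 188 and 135 with the block, and 918 lower with DESeq2. Of the members, 0 were higher and 1 lower among genes detected in both groups, with voom and with the block (at unadjusted p under 0.05, 0 and 2, 1 and 2, and 0 and 1), against 2 and 2 with DESeq2. Of the other pathway genes, 0 were higher in these 3 fits (unadjusted 3, 9 and 3), 0 were lower among genes detected in both groups and with the block (unadjusted 1 and 1), and 5 were lower with DESeq2. The fit on genes detected in both groups required 10 counts in 2 WT and 3 Fyn-KO libraries. It tested 3 members and 32 other pathway genes. Notch2, Lfng and the other pathway genes called above could not enter it, so the 0 there does not bear on their calls. No pairing by replicate number was seen: the correlation of same-numbered deviations was -0.0142, -0.000155 and -0.0205, and no library correlated best with its own number. WT replicate 3 took the number its group had left, and many WT genes were all or none, so a pairing is not excluded.

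With 1 library left out, 2190 to 4585 genes were higher (most without WT replicate 2) and 247 to 839 lower, 2 to 3 members higher and 2 lower, and 5 to 15 other pathway genes higher (15 without WT replicate 2, 11 without replicate 3) and 0 to 5 lower (0 without Fyn-KO replicate 2 or 3, 3 without WT replicate 1 or 3, 5 without WT replicate 2). Jag1 ranged from -0.72 to 10.93 and Notch3 from 3.10 to 9.21. Dll1 and Jag2 had no WT count, although the WT libraries were deeper than those of Fyn-KO. Genes high in 1 WT library were often under 1 CPM in another. A WT count of 0 therefore does not bound the level of these genes in the cells.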

Other observations

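In WT replicate 3 the 8 endothelial markers were uneven, from 307 CPM of Kdr, 224 CPM of Egfl7 and 206 CPM of Cldn5 to 2.69 CPM of Pecam1 and no count of Emcn. In the Fyn-KO libraries Pecam1 stood at 87.7 to 135.5 CPM, Emcn at 9.63 to 58.2 CPM and Cldn5 at 8.95 to 25.1 CPM. Mfng, manic fringe, a glycosylation gene like Lfng, stood at 195 CPM in WT replicate 3, had no count in the other WT libraries, and stood at 4.71 to 13.1 CPM in Fyn-KO.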
